A study of Mus musculus with 6 samples.

Results

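T lineage commitment transcription factors are the proteins that turn a thymic progenitor into a cell that can only become a T cell. The 10 genes described here, *Tcf7*, *Lef1*, *Bcl11b*, *Gata3*, *Runx1*, *Ets1*, *Ikzf1*, *Myb*, *Gfi1* and *Satb1*, were chosen by name from the 41457 genes of the deposited tables. All 10 were among the 12224 genes with enough reads to be tested. Messenger RNA was sequenced from CD4-CD8- double negative (DN) thymocytes, which the study describes as freshly isolated. The cells had been enriched by magnetic removal of those carrying CD4 or CD8. The 3 control libraries came from BirA mice, labelled WT, which express the biotin ligase BirA from the *Rosa26* locus and carry no added *Nfatc1*. The 3 Nc1Bio libraries, labelled NFATc1 overexpression, came from mice that express BirA too and carry an extra copy of *Nfatc1* on 1 bacterial artificial chromosome (BAC), with a sequence for biotin tagging at the end of NFATc1/A, an isoform of the protein. Per the methods of the study, the mice were 4 to 6 weeks old, sex- and age-matched, and on a C57/B6 background. Whether each library of a group is another animal is not in the labels, and p-values therefore cover the spread between these libraries, which may be technical. The comparison asks which of these factors differ in level when NFATc1, a transcription factor that acts downstream of the T cell receptor (TCR), is overexpressed.

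Commitment to the T lineage starts when Notch signals in the thymus switch on *Tcf7* and *Gata3* in incoming progenitors. TCF1, the product of *Tcf7*, and its relative LEF1 bind the same DNA motif through an HMG box, and both can use β-catenin as a co-activator. *Bcl11b* comes on next, and its zinc finger protein closes off the natural killer (NK) and myeloid fates. RUNX1, ETS1, the Ikaros protein encoded by *Ikzf1* and MYB are active from earlier progenitors on and act with these factors at T cell enhancers, while GFI1 is a repressor and SATB1 organises chromatin.

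The libraries held 11845952 to 15393763 reads assigned uniquely to a gene, and levels are given below as CPM, the reads of a gene scaled to a common library total after TMM normalisation. *Nfatc1* itself was at 152, 128 and 96.9 CPM in BirA replicates 1 to 3 and at 573, 597 and 551 CPM in Nc1Bio replicates 1 to 3. Its log2 fold change was 2.19 (SE 0.16, edgeR adjusted p = 0.0141), so the targeted gene followed the labels. The call ended when BirA replicate 2 or any single Nc1Bio library was left out, with adjusted p up to 0.141 at log2 fold changes of 2.16 to 2.22. The counts do not separate the BAC copy from the endogenous gene. Of the 11 DN markers, the summed level was 4867 to 5539 CPM in BirA and 5603 to 6873 CPM in Nc1Bio, while *Cd4*, *Cd8a* and *Cd8b1* together reached 22.2 to 52.6 and 21.1 to 41.6 CPM. *Dntt* (1933 to 2932 CPM over all libraries) and *Thy1* (1608 to 2054 CPM) carried most of the DN sum. *Rag1* (2.42 to 9.33 CPM) and *Rag2* (1.88 to 4.48 CPM) added little to it. RNA of other cells was present as well. The 6 red cell markers summed to 17640 to 97500 CPM, most in BirA replicate 1 and Nc1Bio replicate 3, which were therefore also left out together. The 6 B cell markers summed to 122 to 340 CPM in BirA and 53.0 to 84.4 CPM in Nc1Bio, and the 7 NK and innate lymphoid markers to 646 to 666 and 294 to 470 CPM. A single gene, *Gzma*, carried most of the NK sum, and the other 6 markers summed to 91.3, 23.7 and 12.4 CPM in BirA replicates 1 to 3 and to 20.1, 3.49 and 1.85 CPM in Nc1Bio, where the groups overlap. The 6 dendritic cell markers summed to 1693, 387 and 367 CPM in BirA and to 369, 96.3 and 221 CPM in Nc1Bio. BirA replicate 1 was thus highest for B cell, dendritic cell and the remaining NK markers. In such bulk samples fewer cells of a type and less RNA per cell cannot be told apart.

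By median size, the differences of the commitment factors between the genotypes were near those of all tested genes. None of the 10 passed the edgeR test, where 0.00818% of all tested genes were called, *Nfatc1* alone, and limma-voom called 0 of the 10 as well. At an unadjusted edgeR p under 0.05 there was 1 member, *Lef1*, where 12.0% of all tested genes had such a p. DESeq2, the tool of the study, called 1 member, *Lef1*, in the higher direction, where it called 2.68% of all genes, 0.450% higher and 2.23% lower, and 2 members, *Lef1* and *Gata3*, had an unadjusted DESeq2 p under 0.05, beside 12.5% of all genes. On total gene reads DESeq2 again called *Lef1* alone (2.66% of all genes). No member passed in edgeR without a low-count filter (0.749% of genes called), in edgeR on junction reads (0.0320%) or at the threshold of the study in DESeq2 (1.37%). The edgeR estimate was above 0 for 6 members and below 0 for 4, against 49.6% above 0 for all tested genes. The log2 fold changes ran from -0.41 for *Gata3* to 0.43 for *Lef1*, and no member exceeded 0.5 in size, which 18.4% of all tested genes did. The median was 0.070, beside a median of -0.0026 over all tested genes. Single libraries moved it: leaving out Nc1Bio replicate 2 gave 0.017, leaving out Nc1Bio replicate 3 gave 0.14, and leaving out BirA replicates 1, 2 and 3 gave 0.027, 0.044 and 0.049. Their median size without sign was 0.17, beside 0.19 for all tested genes. The 95% interval of the log2 fold change lay within 1 unit of 0 for all 10 members, so that a 2-fold difference in either direction was outside the interval of each. The same was true of 67.5% of all tested genes. The groups did not overlap for 2 members, *Lef1* and *Gfi1*, both higher in Nc1Bio, where 8.45% of all tested genes were higher without overlap and 9.98% lower, 18.4% in all.

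**Figure D1:**
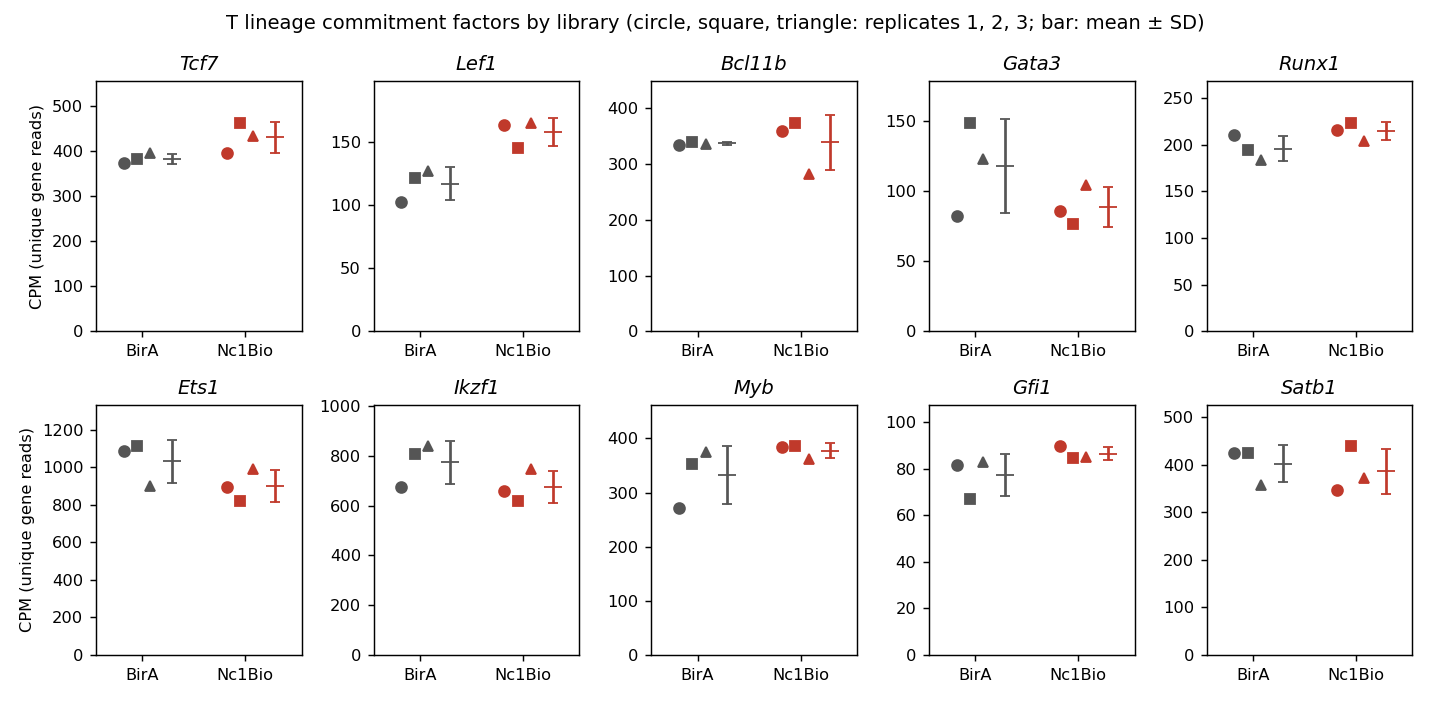
CPM of unique gene reads (vertical axes, from 0) of the 10 commitment factors, with BirA libraries in grey and Nc1Bio libraries in red. Circles, squares and triangles are replicates 1, 2 and 3, and the bar at the side is the mean ± SD of 3 libraries. *Lef1* and *Gfi1* are the 2 panels in which all red points lie above all grey points, and *Gata3* has the widest spread, from 76.2 to 149 CPM.

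*Lef1* (ENSMUSG00000027985, chromosome 3, 131110471 to 131224356, plus strand, GRCm38) had the largest difference of the 10 on unique gene reads with all libraries. *Gata3* equalled it in size on total gene reads (-0.41, and 0.41 for *Lef1*) and exceeded it without BirA replicate 1, Nc1Bio replicate 3 or both, and *Gfi1* was larger on junction reads. *Lef1* was at 102, 121 and 127 CPM in BirA replicates 1 to 3 and at 163, 145 and 165 CPM in Nc1Bio replicates 1 to 3. Every Nc1Bio library was above every BirA library. The BirA and Nc1Bio means were 117 ± 13.0 and 158 ± 11.2 CPM (SD, n = 3 each), a 1.35-fold difference with a 95% interval of 1.13 to 1.62-fold. The log2 fold change of 0.43 (SE 0.11) had an edgeR adjusted p of 0.243 and a DESeq2 adjusted p of 0.0280. With 1 library left out the edgeR estimate ran from 0.34 without BirA replicate 1 to 0.50 without BirA replicate 3. The DESeq2 call held without BirA replicate 3 (adjusted p = 0.00843) and without Nc1Bio replicate 2. Those fits called 735 and 166 genes in all, beside 328 with all libraries. The call ended without any of the other 4 libraries, with adjusted p up to 0.140. Without BirA replicate 1 and Nc1Bio replicate 3, the 2 libraries with most red cell RNA, the edgeR estimate was 0.31 (adjusted p = 0.553). The summed DN markers, too, were higher in all 3 Nc1Bio libraries, but the lowest Nc1Bio sum, 5603 CPM, was close to the highest BirA sum, 5539 CPM. Of the 11 DN markers 9 had estimates above 0 and 2, *Kit* (-0.47) and *Cd44* (-0.815), below. The part of the DN markers in the difference was not tested.

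The sequence upstream of a *Lef1* start site is printed because this gene had the lowest edgeR p, with that of *Gata3*, which had the lowest p among the members below 0, beside it. Both are RefSeq sequences on GRCm38.p6, 250 bases ending just before the start site that lies nearest to the start of the gene in the deposited tables, 5′ to 3′ on the strand of the gene. The region is chr3:131110073-131110322 on the plus strand for *Lef1* and chr2:9878601-9878850 on the minus strand for *Gata3*. The *Lef1* start site lies 148 bases from the start of the counted gene. That of *Gata3*, the 1 site listed for it, lies 11434 bases inside the counted gene, so its window is not at the gene's outer start. Capitals mark the letters GGAAA or, on the other strand, TTTCC, the core that NFAT proteins bind and that overlaps the GGAA of ETS family motifs.
Lef1: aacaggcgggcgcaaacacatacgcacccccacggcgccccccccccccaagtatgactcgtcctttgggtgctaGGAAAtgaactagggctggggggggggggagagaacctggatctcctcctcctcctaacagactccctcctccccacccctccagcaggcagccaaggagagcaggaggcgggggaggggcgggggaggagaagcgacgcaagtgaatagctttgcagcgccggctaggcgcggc
Gata3: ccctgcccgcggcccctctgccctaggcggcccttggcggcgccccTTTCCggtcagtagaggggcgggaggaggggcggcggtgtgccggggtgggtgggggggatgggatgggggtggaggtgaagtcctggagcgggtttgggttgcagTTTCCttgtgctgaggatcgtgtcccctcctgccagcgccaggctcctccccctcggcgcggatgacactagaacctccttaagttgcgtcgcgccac
The *Lef1* sequence holds 1 match and that of *Gata3* 2. Of the 9 members with an entry, which leaves out *Ets1*, 6 hold at least 1, beside 55.6% of all 32851 promoter entries over the same 250 bases. The letters CTTTG or CAAAG, the core bound by TCF1 and LEF1, occurred in 3 of the 9 members, *Lef1* with 2 matches, *Bcl11b* and *Ikzf1*, beside 48.6% of all entries. Such matches describe the letters of these windows and are no binding data.

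*Tcf7* (ENSMUSG00000000782, chromosome 11, 52252371 to 52283014, minus strand), the relative of *Lef1*, was at 373, 383 and 396 CPM in BirA and at 396, 464 and 435 CPM in Nc1Bio. Nc1Bio replicate 1 and BirA replicate 3 were level, and the other Nc1Bio libraries were above all BirA libraries. The log2 fold change of 0.17 (SE 0.093, 95% interval -0.048 to 0.38) had an edgeR adjusted p of 0.512. The counting of this gene was unlike that of the other members. Between 16.7% and 17.9% of its total gene reads were assigned uniquely, where the other 9 members had 73.4% or more. All of its unique exon reads spanned a junction between exons (100% in every library), beside 1.22% to 38.2% over the other 9 members. Exon reads of *Tcf7* that do not cross a junction were thus never counted as unique. The tables list 2 genes that overlap it, *Gm26551* on the same and *A630014C17Rik* on the opposite strand. *Gm26551* had 22.0 to 29.0 CPM and *A630014C17Rik* 30.7 to 80.0 CPM of unique reads, and neither passed the test (log2 fold changes of 0.078 and 0.27, edgeR adjusted p of 0.867 and 0.750). In BirA replicate 1, for example, 305 of 324 total reads of *Gm26551* and 907 of 908 of *A630014C17Rik* were unique. For *Tcf7* it was 5173 of 29274 in that library. What the reads of *Tcf7* that were not unique were shared with was not tested.

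Total gene reads, which keep shared reads, gave a similar fold for *Tcf7* at a higher level. It was then at 1506, 1602 and 1617 CPM in BirA and at 1688, 1853 and 1733 CPM in Nc1Bio. The groups did not overlap on this scale, where 8.42% of all tested genes were higher in Nc1Bio without overlap. The log2 fold change was 0.16 (SE 0.088, edgeR adjusted p = 0.524). The ratio of *Tcf7* to *Lef1* reads within a library does not depend on its depth. On the log2 scale the ratio was 1.72 ± 0.13 in BirA and 1.45 ± 0.21 in Nc1Bio (SD, n = 3 each), with Nc1Bio minus BirA at -0.27 and p = 0.3 by an exact permutation test, two-sided, in a design that cannot go below 0.1. Nc1Bio replicate 2, at 1.68, lay within the BirA range of 1.64 to 1.87, while Nc1Bio replicates 1 and 3, at 1.28 and 1.40, lay below it.

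*Bcl11b* (ENSMUSG00000048251, chromosome 12, 107910403 to 108003602, minus strand), the zinc finger gene that seals commitment, was the most even of the 10 among the controls. It was at 334, 340 and 336 CPM in BirA and at 359, 374 and 283 CPM in Nc1Bio. The Nc1Bio libraries lay on both sides of the BirA libraries, with replicate 3 lowest. *Bcl11b* had a log2 fold change of 0.0077 (SE 0.12, 95% interval -0.27 to 0.28, edgeR adjusted p = 0.986). Its sign turned with single libraries: leaving out Nc1Bio replicate 2 gave -0.069 and leaving out Nc1Bio replicate 3 gave 0.12. The CPM had a coefficient of variation of 0.914% in BirA and 14.4% in Nc1Bio.

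*Gata3* (ENSMUSG00000015619, chromosome 2, 9857078 to 9890034, minus strand), which is needed at several steps of T cell development and is also active in innate lymphoid cells, varied most. It was at 82.0, 149 and 123 CPM in BirA and at 85.5, 76.2 and 104 CPM in Nc1Bio. The groups overlapped, because BirA replicate 1 was as low as the Nc1Bio libraries, while BirA replicates 2 and 3 were above all of them. Its log2 fold change was -0.41 (SE 0.22, 95% interval -0.91 to 0.089, edgeR adjusted p = 0.488, DESeq2 adjusted p = 0.382). Single libraries moved it from -0.62 without BirA replicate 1 to -0.21 without BirA replicate 2. DESeq2 called *Gata3* lower without BirA replicate 1 (adjusted p = 0.0390), a fit that called 1.34% of all genes lower. Without BirA replicate 1 and Nc1Bio replicate 3 the edgeR value was -0.75 (adjusted p = 0.178). The sum of all 7 NK and innate lymphoid markers, given above, was lower in every Nc1Bio library than in any BirA library. Without *Gzma*, a split made after seeing the data, the sum was highest in BirA replicate 1, the BirA library lowest in *Gata3*. The part of these markers in the level of *Gata3* was not tested.

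*Ets1* and *Ikzf1*, both active in lymphocytes in general and the members with most unique reads, had nearly equal folds. *Ets1* (ENSMUSG00000032035, chromosome 9, 32636221 to 32757820, plus strand) encodes the founding member of the ETS family and was at 1085, 1110 and 900.3 CPM in BirA and at 896, 817 and 989 CPM in Nc1Bio. *Ikzf1* (ENSMUSG00000018654, chromosome 11, 11685003 to 11772926, plus strand) was at 677, 807 and 838 CPM in BirA and at 660.4, 619 and 747 CPM in Nc1Bio. For each gene 2 of the 3 Nc1Bio libraries lay below all BirA libraries and replicate 3 lay among them. The log2 fold change was -0.20 for both (SE 0.12, 95% interval -0.47 to 0.078, edgeR adjusted p = 0.547). The lowest interval bound corresponds to 0.722 times the BirA level. With 1 library left out, *Ets1* ran from -0.28 without BirA replicate 3 (adjusted p = 0.291) to -0.13 without Nc1Bio replicate 2. *Ikzf1* ran from -0.28 without BirA replicate 1 (adjusted p = 0.612) to -0.13 without BirA replicate 3. On junction reads *Ets1* was at -0.32. B cell markers were lower in every Nc1Bio library than in any BirA library (given above), and B and NK cells express both genes as well; their part was not tested.

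*Runx1*, *Myb*, *Gfi1* and *Satb1* made up the rest. *Runx1* (ENSMUSG00000022952, chromosome 16, 92601466 to 92826149, minus strand), whose protein binds DNA with the partner CBFβ, was at 210.3, 194 and 183 CPM in BirA and at 216, 224 and 204 CPM in Nc1Bio. Its log2 fold change was 0.13 (SE 0.092, 95% interval -0.081 to 0.35, edgeR adjusted p = 0.602). The value was 0.017 on junction reads. Nc1Bio replicate 3 lay within the BirA range of CPM and the other Nc1Bio libraries above it. *Myb* (ENSMUSG00000019982, chromosome 10, 21124935 to 21160984, minus strand), which supports proliferating progenitors, was at 272, 352 and 374 CPM in BirA and at 385, 385 and 361 CPM in Nc1Bio. BirA replicate 1 was far below the other 5 libraries, and its log2 fold change, 0.18 with all libraries (SE 0.13; adjusted p = 0.609 in edgeR), was 0.054 without that library.

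*Gfi1* (ENSMUSG00000029275, chromosome 5, 107716657 to 107726036, minus strand), a repressor that restrains myeloid and cytokine receptor genes, was at 81.6, 67.0 and 83.0 CPM in BirA and at 89.5, 84.4 and 85.1 CPM in Nc1Bio. The groups did not overlap, but the highest BirA and lowest Nc1Bio libraries lay close together. *Gfi1* had a log2 fold change of 0.16 (SE 0.11, 95% interval -0.088 to 0.41, edgeR adjusted p = 0.585), 0.071 without BirA replicate 2 and 0.39 on junction reads. *Satb1* (ENSMUSG00000023927, chromosome 17, 51736187 to 51833290, minus strand) was at 425, 424 and 358 CPM in BirA and at 347, 438 and 372 CPM in Nc1Bio. The Nc1Bio libraries spanned the BirA libraries on both sides. Its log2 fold change of -0.061 was smaller than its SE of 0.12 (edgeR adjusted p = 0.870), and it was 0.014 without Nc1Bio replicate 1.

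**Figure D2:**
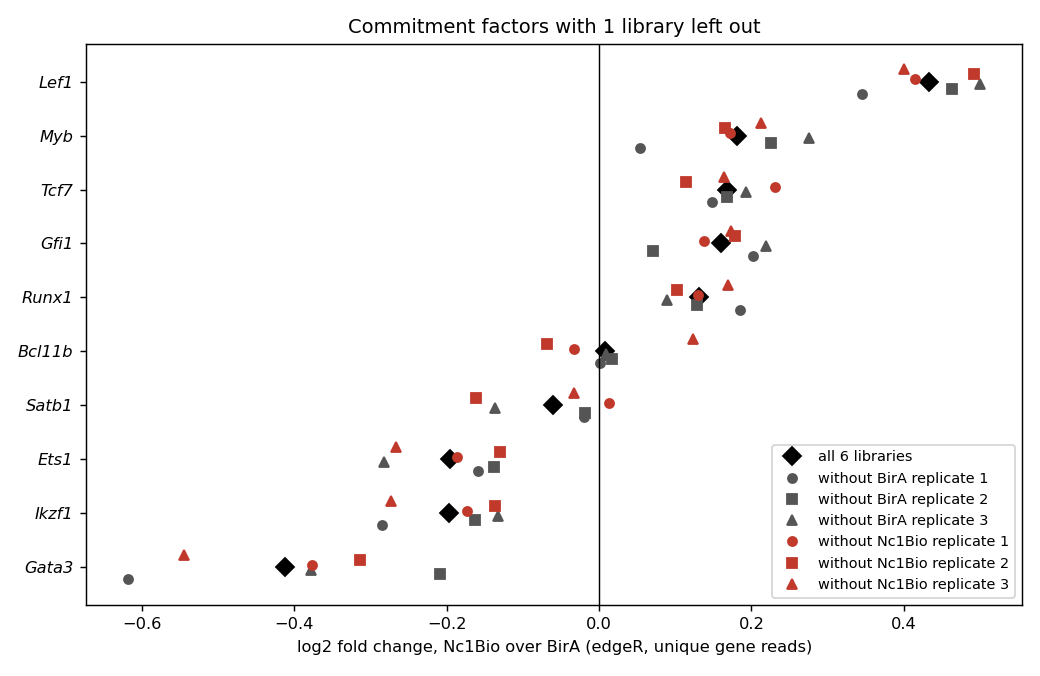
Log2 fold change of Nc1Bio over BirA (horizontal axis, edgeR on unique gene reads) for each commitment factor with all 6 libraries (black diamonds) and with 1 library left out (grey for a BirA, red for an Nc1Bio library; circle, square and triangle for replicates 1, 2 and 3). *Lef1* stays between 0.34 and 0.50, *Gata3* spreads from -0.62 to -0.21, and *Bcl11b* and *Satb1* lie on both sides of 0.

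Across the members no library was low or high throughout. Among the BirA libraries replicate 1 was lowest for 6 of the 10 factors and highest for 2. Among the Nc1Bio libraries replicate 2 was lowest for 5 and highest for the other 5. The range over the 6 libraries on the log2 scale takes in any difference between the groups. It was narrowest for *Runx1* (0.29), *Tcf7* (0.31) and *Satb1* (0.34), and widest for *Gata3* (0.97) and *Lef1* (0.69). Within groups, the coefficient of variation of *Lef1* CPM was 11.2% in BirA and 7.11% in Nc1Bio, beside 28.6% and 16.2% for *Gata3*.

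Levels of different genes were compared as the CPM of unique exon reads per kilobase of exon. In BirA the order was *Tcf7* (146 ± 3.91), *Ikzf1* (132 ± 14.4), *Ets1* (123 ± 13.7), *Bcl11b* (41.8 ± 0.459), *Myb* (37.5 ± 5.73), *Gata3* (29.7 ± 8.44), *Gfi1* (24.1 ± 2.88), *Satb1* (21.0 ± 2.16), *Runx1* (15.7 ± 0.984) and *Lef1* (12.6 ± 1.58; SD, n = 3 for each). Neighbours whose BirA libraries did not overlap were *Ets1* and *Bcl11b*, *Satb1* and *Runx1*, and *Runx1* and *Lef1*, and all other neighbours overlapped. In Nc1Bio the order was the same but for *Myb* and *Bcl11b*, *Gfi1* and *Gata3*, and *Lef1* and *Runx1*, which changed places. *Lef1* was at 17.1 ± 1.49 and *Runx1* at 17.0 ± 0.668 there (SD, n = 3 each), a difference smaller than the spread. With total exon reads, chosen after seeing the data, *Tcf7* stood at 589 ± 20.6 in BirA and *Ikzf1*, the next, at 94.6 ± 10.3 (SD, n = 3 each). The unique reads therefore set *Tcf7* far lower relative to the other factors than the total reads did. In BirA, total exon reads also put *Lef1* (12.01) above *Runx1* (11.45), with overlapping libraries, and *Myb* (35.26) above *Bcl11b* (29.8). The order of *Runx1* and *Lef1* in BirA thus depended on the kind of reads.

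**Figure D3:**
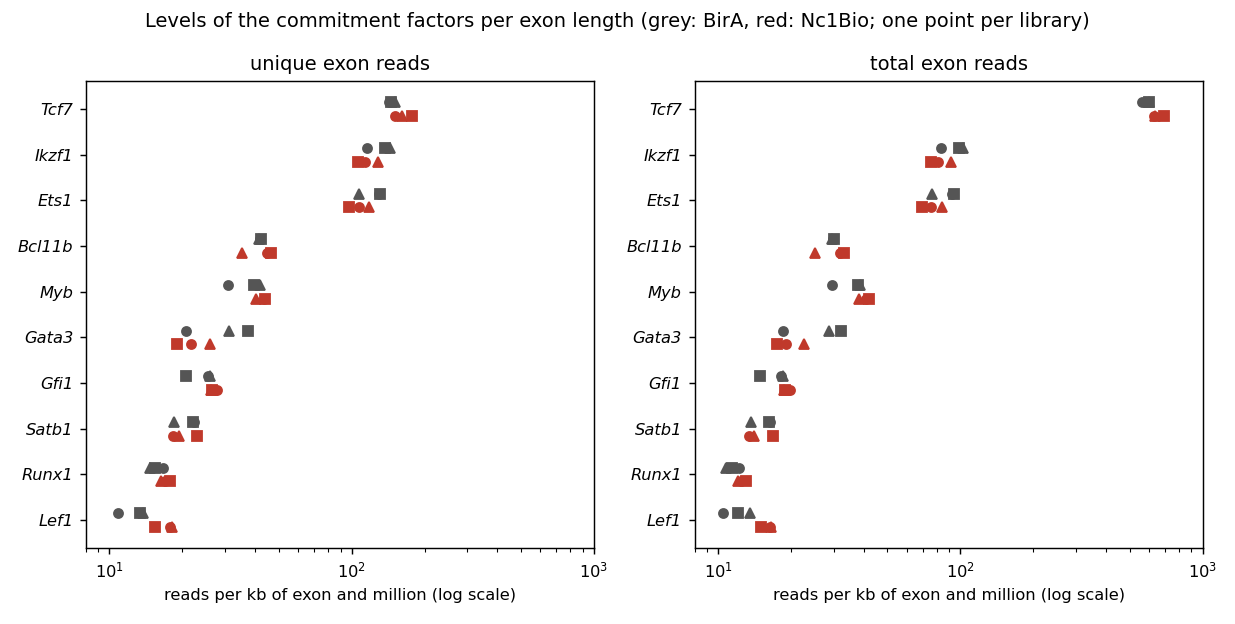
CPM of exon reads per kilobase of exon (horizontal axes, log scale) for each commitment factor in every BirA (grey) and Nc1Bio (red) library, with unique exon reads on the left and total exon reads on the right. *Tcf7* leads on both sides, near 146 in BirA with unique and near 589 with total reads, while *Lef1* and *Runx1* are lowest in BirA on both sides.

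Intron reads come mostly from unspliced RNA and were compared as a further readout. They were few, 1.58% to 2.15% of the unique gene reads of a library and between 12 and 452 per library for the members. *Lef1* and *Runx1* had the largest intron shares, 5.18% to 9.06% and 4.47% to 7.20% of their unique reads. Of 10 members tested, 0 passed in edgeR on intron reads, where 0.0227% of 4414 genes were called, 0 had an unadjusted p under 0.05, and DESeq2 called 0 of the 10 (0.0906% of those genes). For 4.17% of those genes the unadjusted p was under 0.05. The intron log2 fold change of *Lef1* was 0.44 (SE 0.30), close to its value from all reads, but its 95% interval ran from -0.21 to 1.10. *Ikzf1* was at 1237, 1551 and 1406 intron CPM in BirA and at 1028, 1005 and 1146 in Nc1Bio. It was the 1 member whose groups did not overlap on this scale, where 11.4% of genes did not (log2 fold change -0.40, SE 0.26, edgeR adjusted p = 0.999). The intron value of *Tcf7* (0.69, SE 0.46) rested on Nc1Bio replicate 3, with 248 intron reads beside 69 to 143 in the other libraries, and was -0.18 without it. *Gata3* had an intron value of -0.0098 (SE 0.48) from 12 to 42 reads, a depth at which its difference from all reads was not detectable.

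**Figure D4:**
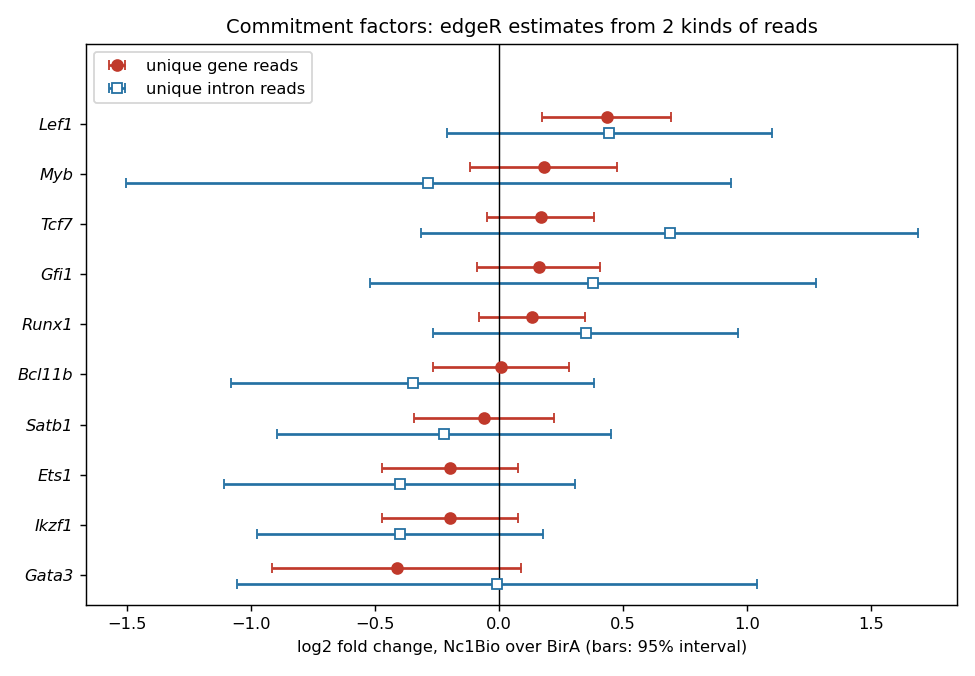
Log2 fold change of Nc1Bio over BirA (horizontal axis) with its 95% interval from edgeR for each commitment factor, from unique gene reads (filled red circles) and unique intron reads (open blue squares). *Lef1* is the 1 factor whose interval from gene reads, 0.17 to 0.69, leaves out 0, before any adjustment for the number of genes, and all intron intervals include 0.

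Genes with which the factors work were compared next, from lists drawn up by known function but with earlier results of these data known. Of 30 relatives and partners 28 were tested, 20 with an estimate below 0 and 8 above (median log2 fold change -0.18, but -0.28 without BirA replicate 3 and -0.11 without BirA replicate 2). EdgeR called 0, with 4 lower and 0 higher before adjustment (p under 0.05), where 7.66% of all tested genes were lower and 4.31% higher. The DESeq2 calls were *Runx3* and *Tle4*, both lower, beside 2.23% of all genes. *Runx3*, the relative of *Runx1* that acts in CD8 and innate-like T cells, was at 48.6, 67.3 and 66.0 CPM in BirA and at 31.8, 36.6 and 35.0 CPM in Nc1Bio. Its groups did not overlap, and the log2 value was -0.81 (SE 0.15; adjusted p = 0.124 in edgeR, DESeq2 adjusted p = 0.000568). *Tle4*, a co-repressor that TCF1, LEF1 and RUNX proteins recruit, had -0.73 (SE 0.17; adjusted p = 0.206 in edgeR). *Fli1* and *Elf1*, ETS family genes like *Ets1*, had -0.40 and -0.26, and passed neither in edgeR nor in DESeq2 (DESeq2 adjusted p of 0.166 and 0.156).

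Progenitor factors that are silenced as cells commit, such as *Spi1* and *Lyl1*, had 12 of 15 tested estimates below 0 (median log2 fold change -0.42). The median was -0.75 without BirA replicate 3, -0.73 without Nc1Bio replicate 3, -0.24 without Nc1Bio replicate 1 and -0.092 without BirA replicate 2, and was -0.21 without BirA replicate 1 and Nc1Bio replicate 3. B cell and dendritic cell markers, given above, were lower on average in Nc1Bio too, and such cells express some of these genes. The 7 granulocyte and macrophage markers summed to 888, 5968 and 415.5 CPM in BirA replicates 1 to 3. In Nc1Bio replicates 1 to 3 they summed to 464, 1945 and 3908 CPM. The part of these cell types was not tested. EdgeR called 0 here too (before adjustment, 1 lower and 0 higher with p under 0.05, beside 7.66% and 4.31% of all tested genes). DESeq2, which called 2.23% of all genes lower, called *Hhex* lower (log2 fold change -1.48, SE 0.41, edgeR adjusted p = 0.269), a homeobox gene of early progenitors with 3.58 to 16.4 CPM. *Kit*, the stem cell factor receptor gene, had -0.47 (SE 0.24), *Mef2c* -1.28 (SE 0.67) and *Cebpa* -0.84 (SE 0.48), and none of these passed. *Mef2c* was at 22.1 CPM in BirA replicate 1 and at 1.16 to 8.54 CPM in the other 5 libraries.

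T cell identity genes, which the factors switch on, split in direction. Of 20 tested, 9 were above and 11 below 0 (median log2 fold change -0.10). The median was -0.026 without BirA replicate 3, -0.042 without BirA replicate 1, -0.063 without Nc1Bio replicate 3 and 0.0027 without BirA replicate 1 and Nc1Bio replicate 3. EdgeR called 0 of the 20, while 3 were higher and 5 lower with p under 0.05 before adjustment, beside 4.31% and 7.66% of all tested genes. Among the DESeq2 calls, *Cd247*, *Zap70*, *Cd5* and *Cd6* were lower (2.23% of all genes) and *Ptcra*, which encodes the pre-TCR α chain, was higher (0.450%). *Cd6* and *Cd5*, receptors that tune TCR signals, had log2 fold changes of -1.11 (SE 0.14) and -1.11 (SE 0.17), with edgeR adjusted p of 0.0831 and 0.106. *Cd247*, which encodes the CD3ζ chain, had -0.40 (SE 0.091), with an edgeR adjusted p of 0.194.

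Among 17 other T cell transcription factors, *Nfatc1* included, 8 were above and 9 below 0 (median log2 fold change -0.13, which moved to 0.0025 on leaving out BirA replicate 3, to -0.077 for BirA replicate 1 and to -0.079 for Nc1Bio replicate 3). *Nfatc1* was the 1 call in edgeR, and 2 genes were higher and 4 lower with p under 0.05 before adjustment, beside 4.31% and 7.66% of all tested genes. Among the DESeq2 calls beside it, *Myc* was higher (0.450% of all genes) and *Id3* and *Foxo1* were lower (2.23%). *Myc* was at 195 ± 9.93 CPM in BirA and 293 ± 28.5 CPM in Nc1Bio (SD, n = 3 each), a log2 difference of 0.59 (SE 0.10; adjusted p = 0.109 in edgeR). *Foxo1*, which maintains quiescence and homing genes, had 53.0 ± 7.46 and 27.2 ± 2.17 CPM (SD, n = 3 each), a log2 difference of -0.96 (SE 0.14; adjusted p = 0.106 in edgeR).

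The profile most like that of *Lef1* over the 6 libraries, by the root mean square difference of centred log2 CPM, was that of *Mzt2* (0.037), followed by *Tcf19* (0.041) and *Rpf2* (0.043). *Mzt2* was at 23.5, 27.9 and 31.3 CPM in BirA and at 38.6, 33.9 and 40.02 CPM in Nc1Bio, so that BirA replicate 1 was lowest in both genes. None of the 3 passed in edgeR (log2 fold changes of 0.45, 0.46 and 0.45, adjusted p of 0.331, 0.225 and 0.208).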

How the data were processed

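Poly(A) libraries were prepared from total RNA of MACS-enriched DN thymocytes, per the labels. For reads, the study names cutadapt, STAR with GRCm38, featureCounts and DESeq2. The tables have columns that featureCounts does not produce, so whether it made them is unclear, and whether strand was used in counting is not stated in its methods. The deposited tables hold whole-number read counts per gene (unique and total gene, exon and junction reads, besides intron reads). The RPKM and TPM columns were left aside. Genes that overlap others or have near-identical copies are uncertain.

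Unique gene reads (11845952 to 15393763 per library) of genes passing filterByExpr were TMM-scaled and tested in edgeR 4.0.16 (quasi-likelihood, genotype as the single term, R 4.3.3) with Benjamini-Hochberg adjustment over all 12224 genes and calls at 0.05. SE is the log2 fold change divided by the square root of F, and intervals use the moderated t distribution of that fit. DESeq2 1.42.0 and limma-voom 3.58.1 ran on the same genes. Other alternatives were RLE scaling, filters, count columns, the study's threshold, the replicate number as a block and libraries left out. Added after seeing the data were DESeq2 with libraries left out or on total reads, DESeq2 on intron reads, junction reads, total exon reads for levels, list medians with libraries left out and the NK markers without *Gzma*. All pairs of libraries differed beyond sampling noise (lowest chi-square over degrees of freedom 21.1). Same-numbered libraries deviated together with r of 0.34, 0.12 and -0.099 over genes, so the numbers were not taken as pairs. The fits were tested on simulated data, in which every gene had the same dispersion and the changes put in were larger than those of any member. That run does not address differences as small as those of the members.

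Members, lists, markers and the rule for named genes (all members, the 4 genes of lowest p in each list, and the 3 profiles nearest to the member of lowest p) were chosen with earlier results of these data known. Some genes that the rule names are not reported here. The marker lists were DN thymocytes, co-receptors, B cells, NK and innate lymphoid cells, granulocytes and macrophages (415 to 5968 CPM summed), dendritic cells, red cell precursors and thymic epithelium (22.2 to 44.9).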

Additional observations from a re-analysis of the deposited data

How the results depend on the processing

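The count of called commitment factors, 0 in edgeR, was 1 with DESeq2 on unique and on total gene reads (*Lef1* each time). Leaving out 1 library it was 0 in edgeR and 0 to 1 in DESeq2, which called *Gata3* in place of *Lef1* without BirA replicate 1. It was 0 under the 10 other alternatives, the study's threshold and the replicate block (0) included. Over all genes the count of 1 became 156 without a low-count filter, 328 with DESeq2, 348 with DESeq2 on total reads, 168 at the study's threshold, 2 with the replicate block, 3 without BirA replicate 1 and Nc1Bio replicate 3 and 3 on junction reads. With 1 library left out it was 0 to 2 in edgeR and in DESeq2 735 without BirA replicate 3, 339 without Nc1Bio replicate 3, 276 without Nc1Bio replicate 1, 205 and 201 without BirA replicates 1 and 2, and 166 without Nc1Bio replicate 2. In the other lists the count of 0, *Nfatc1* apart, was 6 without a filter, 13 with DESeq2, 12 with DESeq2 on total reads, 7 at the study's threshold and 7, 8, 13 or 16 in DESeq2 with 1 library left out. *Nfatc1* ranged from 2.03 to 2.35 with 1 library left out.

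Of 230 log2 fold changes of members under 23 alternatives, 215 kept sign and side of the threshold, 5 passed it (4 of *Lef1*, 1 of *Gata3*) and 10 changed sign. *Bcl11b* was -0.0031 by limma-voom, -0.0026 under the replicate block, -0.053 on junction reads, and -0.069 to 0.12 with 1 library left out in edgeR (-0.065, -0.036 and up to 0.11 in DESeq2). *Satb1* was 0.0035 without BirA replicate 1 and Nc1Bio replicate 3, and -0.16 to 0.014 with 1 library left out in edgeR (up to 0.010 in DESeq2). On intron reads, *Tcf7* turned to -0.18 without Nc1Bio replicate 3, and single libraries moved *Gata3* from -0.44 to 0.30 and *Myb* from -0.88 to 0.30. The difference in the ratio of *Tcf7* to *Lef1* kept its sign under all 8 alternatives. The cause of these shifts was not tested.

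The replicate block changed no call among the members. Of the numbered libraries, BirA replicate 1 deviated most like Nc1Bio replicate 1 (r = 0.34) but BirA replicate 2 like Nc1Bio replicate 3 (0.25), so not every library went best with its own number.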
